A study of Mus musculus with 6 samples.

Results

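Protein lysine and histidine methyltransferases that act in skeletal muscle were examined in the gastrocnemius of male C57BL6J mice. The muscles had received an intramuscular AAV9 vector at 5 months of age and were taken 5 months later, and mRNA was counted in 3 libraries per group. AAV9-HSA-CAAHR muscles (replicates 31, 34 and 36) expressed a constitutively active aryl hydrocarbon receptor (AHR), which lacks its ligand-binding domain. AAV9-HSA-GFP muscles (replicates 42, 43 and 46) expressed green fluorescent protein. The HSA (human skeletal actin) promoter restricted both inserts to muscle fibres, and the study notes that AAV9 expression is mosaic and favours fast fibres. Both groups carried a vector, so each difference is between 2 vectors and not from uninjected muscle. The 10 genes were taken by name from a table of 49315. The table held 8 under the listed symbols, and Mettl21d and Mettl20 were found under their current symbols Vcpkmt and Etfbkmt. Mettl21c was chosen by its measured counts, which fell in this same comparison, so its values are described with no test. The other 9 were chosen by name, as its relatives or as muscle methyltransferases. All 10 genes passed the filter on low counts.

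These enzymes move a methyl group from S-adenosylmethionine onto a lysine or histidine of another protein, and several of them have a single known target. METTL21A methylates HSP70 chaperones, VCPKMT (METTL21D) methylates the ATPase VCP, and METTL21C and METTL21E are their close relatives, found mainly in striated muscle. SMYD1 is a heart and skeletal muscle factor needed to build sarcomeres, SMYD2 methylates HSP90 and SMYD3 is a related enzyme of wider expression. SETD3 methylates a histidine of actin. ETFBKMT modifies the mitochondrial electron carrier subunit ETFB, and EEF2KMT the translation elongation factor eEF2.

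The promoters of Setd3 and Vcpkmt are shown because the Setd3 transcript differed between the groups while that of Vcpkmt did not pass the test. RefSeq sequence (GRCm38.p6) is given 5′ to 3′ on the minus strand, up to the outermost annotated start of each gene, and capitals mark GCGTG, the core letters of the AHR response element, or its reverse complement.
Setd3, chr12:108179315-108179534: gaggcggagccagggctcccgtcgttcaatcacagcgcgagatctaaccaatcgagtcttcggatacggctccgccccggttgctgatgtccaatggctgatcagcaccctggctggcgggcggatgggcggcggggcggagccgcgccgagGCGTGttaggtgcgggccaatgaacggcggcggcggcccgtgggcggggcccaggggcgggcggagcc
Vcpkmt, chr12:69583029-69583267: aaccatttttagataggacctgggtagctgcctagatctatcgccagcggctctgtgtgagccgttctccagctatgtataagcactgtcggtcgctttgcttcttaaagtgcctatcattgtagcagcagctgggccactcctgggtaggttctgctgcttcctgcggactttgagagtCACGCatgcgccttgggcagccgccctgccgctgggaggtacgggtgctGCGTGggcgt
Setd3 held 1 match in these 220 bases and Vcpkmt 2 in 239. The printed Vcpkmt stretch ends inside a further match, and the Vcpkmt window described next held 4, against 1 for Setd3. Over windows from 250 bases before to 50 after a start, searched on both strands, 5 of the 7 listed genes with a RefSeq window held the letters (Setd3, Vcpkmt, Smyd2, Mettl21a and Eef2kmt), against 32.4% of all 32851 windows. The 5 of 7 counts genes, which had 8 windows in all, while the 32.4% counts windows, so the 2 shares are not on the same basis. A match is a description of letters and not of binding. Mettl21c, Mettl21e and Smyd3 had no window in the table used.

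The library totals lay between 43432994 and 58825752 counts. Every value per library is a TMM-scaled CPM, that is, counts relative to the library total after scaling by the trimmed mean of M values. The 6 genes of the AHR list, Ahr among them, all passed the test as higher in AAV9-HSA-CAAHR muscles, and their summed CPM was 1680 to 2314 against 57.1 to 66.6. The insert was made from the mouse Ahr coding sequence, so its transcripts can be counted as Ahr. The rise of Ahr therefore follows from the injection, and the sum includes it. Of the 14 myofibre genes examined, all passed the filter, and their summed CPM was 34835 to 36791 against 32922 to 33541, which fits the labelled tissue. In bulk muscle, fewer cells of a type and less RNA per cell cannot be told apart. The labels number the libraries but do not state that each came from a separate mouse, so p-values measure only the spread between these libraries.

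Mettl21c was the gene with the widest gap among the 10. It lies on the minus strand of GRCm38 chromosome 1, from 44009408 to 44020034, with 4 merged exons of 4300 bases in all. Its CPM was 25.9, 29.1 and 21.8 in AAV9-HSA-CAAHR replicates 31, 34 and 36, and 70.4, 70.9 and 74.3 in AAV9-HSA-GFP replicates 42, 43 and 46. The AAV9-HSA-CAAHR libraries were all low and the groups did not overlap. The means were 25.6 ± 3.62 and 71.8 ± 2.15 CPM (SD, n = 3 each), a 2.81-fold lower level, and the log2 fold change was -1.49 ± 0.11 (SE). This fall placed Mettl21c on the list and is given as a description. Counts were 1309 to 1660 in AAV9-HSA-CAAHR libraries and 2948 to 3935 in AAV9-HSA-GFP libraries. No 50-base stretch of its transcripts occurred in a transcript of another gene. It ranked 405 from the lowest log2 fold change among 15847 tested genes.

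**Figure D1:**
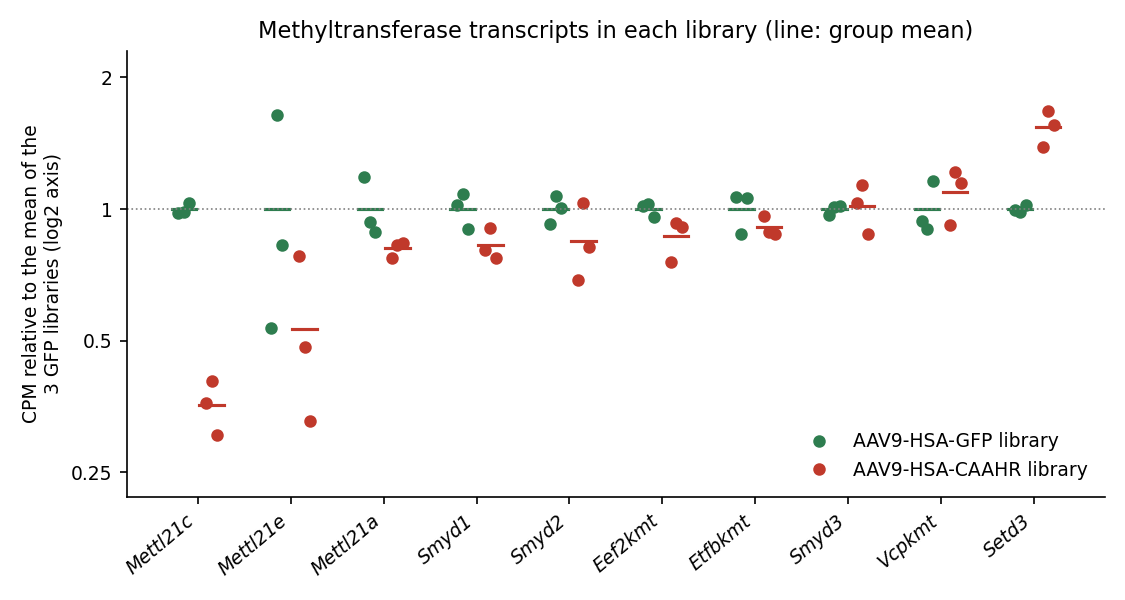
CPM of each of the 10 methyltransferase genes in each library, relative to the gene's mean over the 3 AAV9-HSA-GFP libraries, on a log2 axis, with points for libraries and lines for group means. Mettl21c points of AAV9-HSA-CAAHR muscles (21.8 to 29.1 CPM) sit below those of all AAV9-HSA-GFP libraries, while Setd3 shows the opposite order.

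Of the other 9 genes, only Setd3 passed the test (1 of 9 at an adjusted p under 0.05, edgeR's quasi-likelihood test, Benjamini-Hochberg adjusted over all tested genes), against 7.6% of 15847 genes. Over all tested genes, 3.04% were called higher and 4.57% lower. Log2 fold changes were positive for 3 and negative for 6, with a median of -0.21, against a median of 0.0086 over all tested genes. The groups did not overlap for 3 of the 9, which were higher for Setd3 and lower for Mettl21a and Eef2kmt, against 29.9% of all tested genes. No more is read from counts over so short a list.

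The other METTL21 genes did not pass the test. Mettl21e, the closest relative of Mettl21c by name and position, lies 184036 bases from it on the same strand (chromosome 1, 44204070 to 44218961). Its CPM was 1.64, 1.02 and 0.689 in AAV9-HSA-CAAHR libraries and 1.12, 3.44 and 1.74 in AAV9-HSA-GFP libraries. These ranges overlapped, and the highest value came from AAV9-HSA-GFP replicate 43. The log2 fold change was -0.91 ± 0.46 (95% interval -1.96 to 0.14, adjusted p = 0.270 by edgeR), on counts of 42 to 143. Without AAV9-HSA-GFP replicate 43 it was -0.37, and with no filter on low counts it passed the test at -0.89 (adjusted p = 0.0151 by edgeR).

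Mettl21a, which methylates HSP70 chaperones, was at 6.55, 7.02 and 7.10 CPM in AAV9-HSA-CAAHR libraries and at 10.01, 7.91 and 7.51 in AAV9-HSA-GFP libraries. The groups did not overlap, but their nearest libraries lay close together. The log2 fold change was -0.30 ± 0.14 (95% interval -0.61 to 0.014, adjusted p = 0.228 by edgeR). Vcpkmt, the enzyme for VCP, was at 2.65, 3.50 and 3.31 CPM against 2.71, 2.60 and 3.34, with overlapping groups. Its log2 fold change was 0.13 ± 0.18 (95% interval -0.28 to 0.54, adjusted p = 0.734 by edgeR).

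The genes of the SMYD family did not pass the test either. Smyd1, the sarcomere factor, was at 480, 541 and 462 CPM in AAV9-HSA-CAAHR libraries and at 609, 645 and 537 in AAV9-HSA-GFP libraries. Replicate 34 lay just above AAV9-HSA-GFP replicate 46, so the groups overlapped. The log2 fold change was -0.27 ± 0.12 (95% interval -0.54 to -0.0088), with an unadjusted p of 0.0441 and an adjusted p of 0.195 by edgeR. Smyd2, which methylates HSP90, was at 117, 175 and 139 CPM against 157, 181 and 171. The low value was that of AAV9-HSA-CAAHR replicate 31, and the groups overlapped. Its log2 fold change was -0.24 ± 0.15 (95% interval -0.57 to 0.09, adjusted p = 0.359 by edgeR). In Smyd2, 814 exon bases (30.0%) also belong to the antisense gene Gm37422, which had 277 to 915 counts, and reads of the pair cannot be told apart if the libraries carried no strand. Smyd3 was at 7.30, 7.998 and 6.20 CPM against 6.86, 7.14 and 7.19, so its AAV9-HSA-GFP libraries lay within the range of the other group. Its log2 fold change was 0.020 ± 0.13 (95% interval -0.28 to 0.32, adjusted p = 0.949 by edgeR), and its sign changed with the scaling.

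Setd3, the actin histidine methyltransferase, rose. It lies on the minus strand of GRCm38 chromosome 12, from 108106431 to 108179314, directly downstream of the promoter printed above. Its CPM was 209.8, 254.5 and 235.5 in AAV9-HSA-CAAHR libraries and 151, 149 and 155 in AAV9-HSA-GFP libraries. Every AAV9-HSA-CAAHR library was above every AAV9-HSA-GFP library, and the latter lay close together. The means were 233 ± 22.5 and 152 ± 2.75 CPM (SD, n = 3 each), a 1.54-fold higher level. The log2 fold change was 0.62 ± 0.10 (95% interval 0.39 to 0.85, adjusted p = 0.00773 by edgeR). It ranked 789 from the highest log2 fold change of the tested genes. Setd3 passed the test in 16 of 16 alternative analyses, with log2 fold changes of 0.52 to 0.80 and a highest adjusted p of 0.0380 without AAV9-HSA-CAAHR replicate 36. The 0.80 came from the fit with the mean level of slow-fibre genes as a covariate. That fit separates the covariate from the vector only poorly, so its call is also hard to read. Of its 50-base stretches, 16.4% also occur in the pseudogenes Gm14026, Gm7114 and Gm8036, which had at most 49 counts in any library against 6209 or more for Setd3.

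The actins that SETD3 modifies moved the other way. Acta1, the skeletal muscle actin and the most abundant gene of the substrate list, was at 21733, 22004 and 21660 CPM in AAV9-HSA-CAAHR libraries and at 35143, 36567 and 37674 in AAV9-HSA-GFP libraries. The groups lay far apart beside the spread within each. Its log2 fold change was -0.74 ± 0.13 (adjusted p = 0.00895 by edgeR). Actb, a cytoplasmic actin, was at 223, 229 and 173 CPM against 346, 330 and 351, with a log2 fold change of -0.72 ± 0.12 (adjusted p = 0.00926 by edgeR). Actg1, the other cytoplasmic actin, was at 76.4, 90.4 and 76.9 CPM against 149, 173 and 143, with a log2 fold change of -0.93 ± 0.11 (adjusted p = 0.00179 by edgeR). Neither cytoplasmic actin had overlapping groups. The summed CPM of 12 immune genes was also lower, at 29.6 to 41.8 against 76.9 to 190. The part of other cells in the actin values was not tested. Actins are near-identical in coding sequence, so reads could be shared among them and their separate values are uncertain. Per kilobase of exon, the ratio of Acta1 to Setd3 was 369 ± 34.4 in AAV9-HSA-CAAHR libraries and 944 ± 27.1 in AAV9-HSA-GFP libraries (SD, n = 3 each).

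All 3 actin calls were lost when the mean level of slow-fibre genes was a covariate. With it, the log2 fold changes were -0.76 for Acta1 (adjusted p = 0.0770 by edgeR), -0.54 for Actb (adjusted p = 0.200) and -0.68 for Actg1 (adjusted p = 0.0786). That mean was 5.64 to 7.71 log2 CPM in AAV9-HSA-CAAHR libraries and 4.09 to 5.18 in AAV9-HSA-GFP libraries. It did not overlap between the groups, so this fit separates it from the vector only poorly, and a lost call is hard to read. The call of Acta1 was also lost without AAV9-HSA-CAAHR replicate 36 (adjusted p = 0.0625 by edgeR) and without AAV9-HSA-GFP replicate 46 (adjusted p = 0.0529), at log2 fold changes of -0.74 and -0.72.

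**Figure D2:**
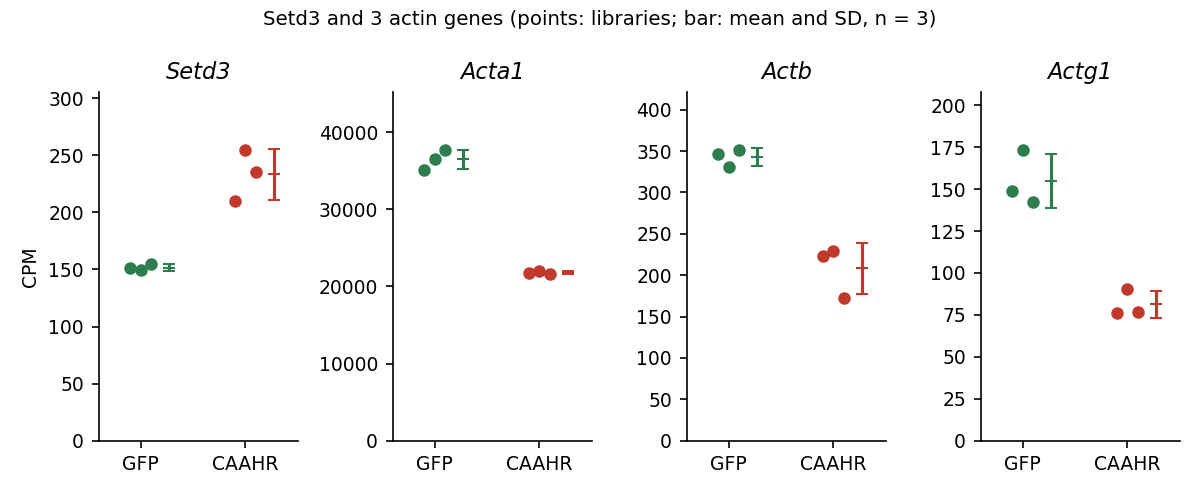
TMM-scaled CPM of Setd3 and of the actin genes Acta1, Actb and Actg1, with points for libraries and bars for the mean and SD (n = 3). Setd3 is higher and each actin lower in the 3 AAV9-HSA-CAAHR libraries than in any AAV9-HSA-GFP library.

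The enzymes of the remaining substrates did not pass the test. Etfbkmt, which modifies ETFB, was at 6.51, 5.99 and 5.92 CPM in AAV9-HSA-CAAHR libraries and at 7.19, 5.94 and 7.16 in AAV9-HSA-GFP libraries, with overlapping groups. Its log2 fold change was -0.14 ± 0.13 (95% interval -0.44 to 0.16, adjusted p = 0.576 by edgeR). Eef2kmt, which modifies eEF2, was at 5.38, 6.60 and 6.48 CPM against 7.21, 7.31 and 6.80. The groups did not overlap, by a narrow gap. Its log2 fold change was -0.21 ± 0.13 (95% interval -0.50 to 0.09, adjusted p = 0.382 by edgeR). Of its exon bases, 472 (17.6%) are shared with Alg1, a protein-coding gene on the opposite strand, and 143 (5.34%) with the antisense gene Gm15983. Alg1 had 466 to 871 counts, more than Eef2kmt (272 to 395) in each library, and Gm15983 had 15 to 31. As for Smyd2, reads of these genes cannot be told apart if the libraries carried no strand.

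**Figure D3:**
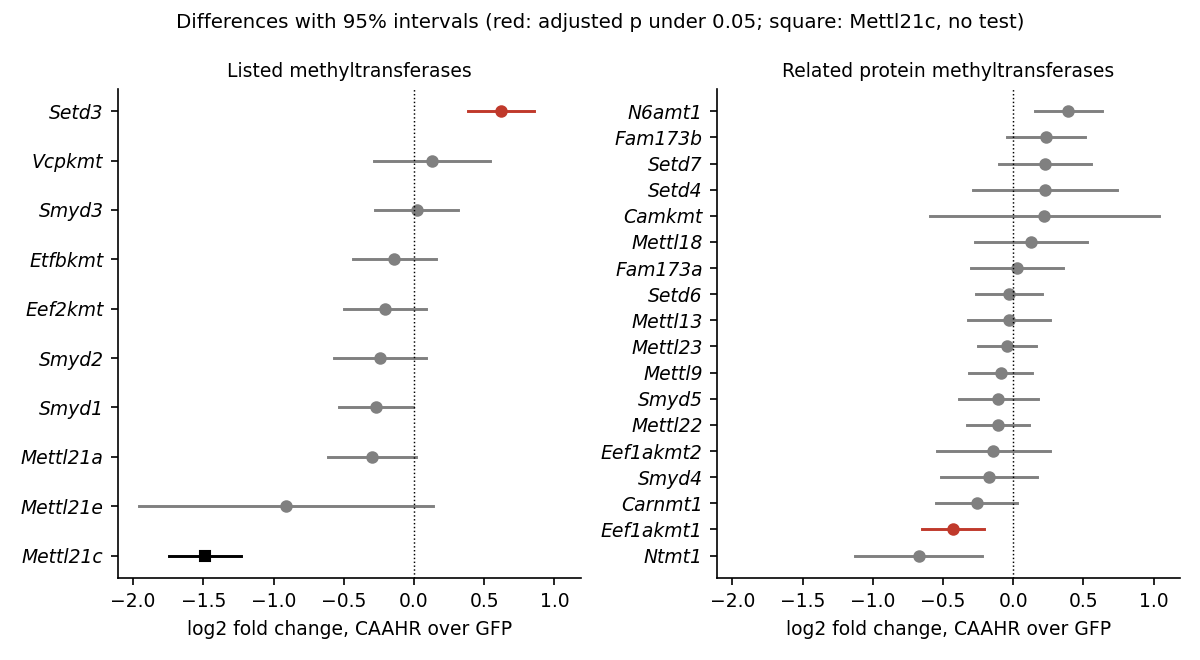
Log2 fold change (AAV9-HSA-CAAHR over AAV9-HSA-GFP) with its 95% interval for the 10 listed genes (left) and 18 related enzymes (right), in red where the adjusted p is under 0.05. A square marks Mettl21c (-1.49), which was listed for its fall in this comparison, so its interval is not read as a test. Of the other listed genes, Setd3 (0.62) and Smyd1 have intervals that exclude 0, and every other interval on the left includes 0.

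Levels of different genes were compared per kilobase of merged exons. In AAV9-HSA-GFP libraries the order of mean CPM per kilobase was Smyd1 (131 ± 12.1), Smyd2 (62.5 ± 4.49), Setd3 (25.1 ± 0.456) and Mettl21c (16.7 ± 0.500), with no overlap between neighbours (SD, n = 3). Mettl21a, Vcpkmt, Etfbkmt and Eef2kmt followed at 2.65 to 2.82 CPM per kilobase and overlapped each other in that order, and Smyd3 (0.769) and Mettl21e (0.530) came last and overlapped. In AAV9-HSA-CAAHR libraries the first 4 places were held by the same genes, but Mettl21c was at 5.95 ± 0.841 and Setd3 at 38.6 ± 3.72 CPM per kilobase. The ratio of Setd3 to Mettl21c per kilobase was 6.57 ± 0.995 in AAV9-HSA-CAAHR libraries and 1.51 ± 0.0243 in AAV9-HSA-GFP libraries. The change in that ratio includes the fall of Mettl21c that put it on the list.

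**Figure D4:**
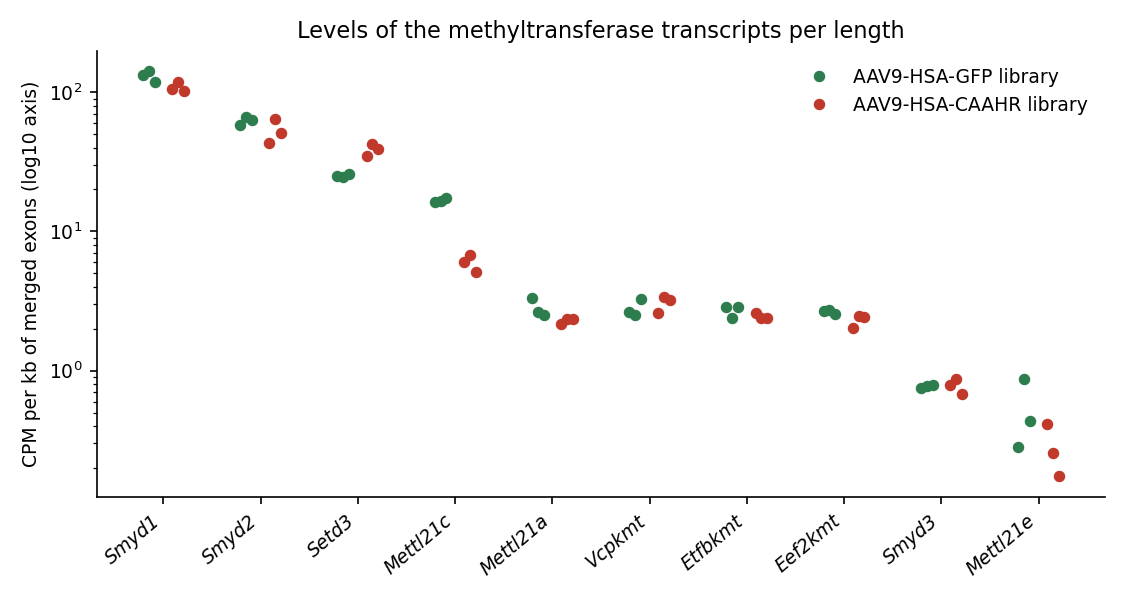
Level of each methyltransferase gene as TMM-scaled CPM per kilobase of merged exons on a log axis, by library and group. Smyd1 is highest and Mettl21e lowest in both groups, and Mettl21c is the gene whose groups lie farthest apart.

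Of 20 further protein methyltransferases, 18 were tested and 1 passed, against 7.6% of all tested genes. This was Eef1akmt1, an enzyme of elongation factor eEF1A. It fell from 15.1 ± 0.800 to 11.2 ± 0.380 CPM (SD, n = 3 each), with a log2 fold change of -0.43 ± 0.10 (adjusted p = 0.0303 by edgeR). With library size alone as the scaling, Eef1akmt1 was at -0.35 (adjusted p = 0.0558 by edgeR), and the 1 enzyme called was N6amt1, as higher (0.47, adjusted p = 0.0319). The call of Eef1akmt1 was lost in 7 of 16 alternatives, among them without AAV9-HSA-CAAHR replicates 31 (adjusted p = 0.0799 by edgeR) and 36 (0.113) and without AAV9-HSA-GFP replicates 42 (0.0643), 43 (0.0858) and 46 (0.0994). The 18 had a median log2 fold change of -0.036 and a range of -0.67 to 0.39. Setd7, a lysine methyltransferase and the highest in CPM, was at 319 ± 27.5 against 272 ± 50.9, a log2 fold change of 0.23 ± 0.15 (adjusted p = 0.387 by edgeR).

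Of 18 tested substrates and partners, edgeR called 3, all of them actins. DESeq2 and limma-voom each called 6 (2 higher and 4 lower), adding Hspa1a, Hspa1b and Unc45b. Over all 15847 tested genes, edgeR called 1205, DESeq2 1923 and limma-voom 1461. The median log2 fold change of the 18 was -0.0030 by edgeR. The following genes were chosen for their role after their values were seen. Hspa1a and Hspa1b, inducible HSP70 genes with near-identical sequence, were at 46.7, 11.9 and 22.9 CPM and 39.3, 7.07 and 17.1 CPM in AAV9-HSA-CAAHR libraries. The AAV9-HSA-GFP libraries held 5.27 to 7.57 and 2.85 to 4.81 CPM, below all of these. The log2 fold changes were 2.06 ± 0.54 (adjusted p = 0.0927 by edgeR, 0.00413 by DESeq2 and 0.0219 by limma-voom) for Hspa1a and 2.53 ± 0.71 (adjusted p = 0.108, 0.00380 and 0.0338) for Hspa1b. Of the 16 alternatives, 5 called Hspa1a and 4 called Hspa1b, and with the slow-fibre covariate their log2 fold changes were 0.43 and 0.29. The list also held other HSP70 genes. Hspa8, at 1029 against 872 CPM, had 0.24 ± 0.12 (adjusted p = 0.270) and Hspa5 had 0.21 ± 0.13 (adjusted p = 0.376), both by edgeR. Hspa9 ran from -0.41 to 0.049 over the alternatives. None of the 16 alternatives called Hspa8, Hspa5 or Hspa9. Vcp, the substrate of VCPKMT, had a log2 fold change of -0.11 ± 0.11 (adjusted p = 0.621 by edgeR). Eef2 had -0.25 ± 0.12 (adjusted p = 0.246) and Etfb 0.25 ± 0.17 (adjusted p = 0.437), both by edgeR. Unc45b, a myosin chaperone, had -0.33 ± 0.10 (adjusted p = 0.0851 by edgeR, 0.0136 by DESeq2 and 0.0454 by limma-voom) with no overlap between groups, and 5 of the 16 alternatives called it.

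None of 11 tested genes of methyl donor supply and use passed edgeR's test (at an unadjusted p under 0.05, 3 were higher and 1 was lower). DESeq2 called 1, Nnmt, as lower, and limma-voom called 0. Nnmt is an enzyme that uses the methyl donor and does not make it. The median log2 fold change of the 11 was 0.10. Mat2a, the muscle enzyme that makes S-adenosylmethionine and the highest of the list, was at 157 ± 38.0 against 193 ± 31.7 CPM, a log2 fold change of -0.30 ± 0.18 (adjusted p = 0.364 by edgeR). Over the 16 alternatives the log2 fold change of Mat2a ran from -0.52 to 0.25, so its sign was not stable. Only 1 of them called it, the fit without AAV9-HSA-CAAHR replicate 34.

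The chromosomal neighbours of Mettl21c were examined next. Within 500 kb on either side lay 25 genes, of which 10 were tested. None passed edgeR's test (1 at an unadjusted p under 0.05), and DESeq2 and limma-voom each called 0. Log2 fold changes ran from -0.91 for Mettl21e to 0.58 for 1500015O10Rik, with a median of 0.088. Tpp2, a peptidase gene 6408 bases away, was at 0.13 (adjusted p = 0.554 by edgeR), and Ercc5, a DNA repair gene, at 0.34 (adjusted p = 0.120). Nck2 (-0.14), Uxs1 (0.29), Tex30 (0.048), Kdelc1 (0.16), Bivm (-0.11) and the pseudogene Gm15833 (-0.80) made up the rest of those log2 fold changes.

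Genes with the pattern most like Mettl21c were sought by the root mean square (RMS) difference of centred log2 CPM over the 6 libraries, among 12241 genes. The nearest were Hacd1 (RMS 0.125), Rnd1 (0.140), Ifit3b (0.149), Egr2 (0.152) and Il1r1 (0.161). Hacd1, a fatty acid elongation enzyme of muscle, was at 15.5 ± 2.91 against 37.3 ± 2.11 CPM (SD, n = 3 each). Of the listed methyltransferases, Smyd1 came nearest, at rank 1584 (RMS 0.624), and Setd3 farthest, at rank 11594 (RMS 1.06). Likeness here mostly restates the difference between the groups, since that difference makes up most of the pattern.

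Markers of fibre type and of other cells also moved between the groups. Over all 15847 tested genes, the calls were 1205 by edgeR, 1923 by DESeq2 and 1461 by limma-voom. The summed CPM of 9 slow-fibre genes was 2818, 661 and 2546 in AAV9-HSA-CAAHR replicates 31, 34 and 36, and 235, 343 and 474 in AAV9-HSA-GFP libraries. All 9 log2 fold changes were positive (median 2.36). None passed edgeR's test (8 at an unadjusted p under 0.05), while DESeq2 called 8 and limma-voom 9 as higher. Myh7, the slow myosin heavy chain, had a log2 fold change of 3.44 (adjusted p = 0.0691 by edgeR). Of 10 fast-fibre genes, 3 fell by edgeR (5 by DESeq2 and 4 by limma-voom), namely Myl1 (-0.72), Tnnt3 (-0.69) and Tnni2 (-0.57). Myh4, the fast IIB myosin, was at -0.31 (adjusted p = 0.325 by edgeR). In this fast-fibre list 9 log2 fold changes were negative and 1 was positive, from -0.72 to 0.997 with a median of -0.46. Of 14 myofibre genes, edgeR called 1, Dmd, as higher (0.46, adjusted p = 0.0385), DESeq2 called 5 higher and 2 lower, and limma-voom 2 higher and 1 lower. Replicate 34 had the lowest slow-fibre sum and the highest Mettl21c and Setd3 CPM of its group. With the slow-fibre mean as a covariate, the log2 fold change of Mettl21c was -1.27 and that of Setd3 0.80 (adjusted p = 0.0256 by edgeR).

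**Figure D5:**
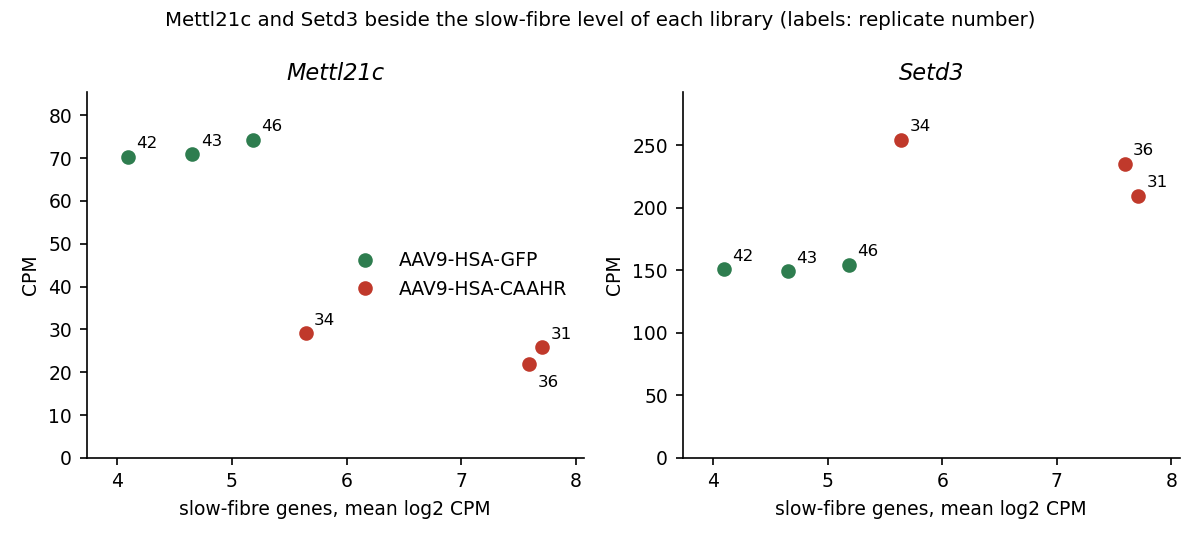
CPM of Mettl21c (left) and of Setd3 (right) in each library, labelled by replicate number, against the mean log2 CPM of 9 slow-fibre genes. The slow-fibre mean is 5.64 in AAV9-HSA-CAAHR replicate 34 and 7.71 and 7.59 in replicates 31 and 36, against 4.09 to 5.18 in AAV9-HSA-GFP libraries.

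As a base for the next lists, edgeR called 3.04% of all tested genes higher and 4.57% lower. Of 9 tested denervation genes, Chrnd, an acetylcholine receptor subunit, rose (log2 fold change 1.05 ± 0.23, adjusted p = 0.0260 by edgeR) and Gadd45a, a stress response gene, fell (-1.12 ± 0.17, adjusted p = 0.00654). Both calls were lost with the slow-fibre covariate, at log2 fold changes of 0.44 for Chrnd (adjusted p = 0.591 by edgeR) and -1.07 for Gadd45a (adjusted p = 0.174). The call of Chrnd was also lost without AAV9-HSA-CAAHR replicate 31 or 36 or AAV9-HSA-GFP replicate 43 or 46 (adjusted p of 0.0866 to 0.108). Hdac4, the highest of the list, was at -0.22 (adjusted p = 0.234 by edgeR). Of 12 immune genes, 5 fell and the summed CPM was 29.6 to 41.8 against 76.9 to 190. The paper's quantitative PCR found selected immune genes not lower in AAV9-HSA-CAAHR muscles than in mice given no AAV. It reads this as a local immune response to the GFP vector. Of 7 adipocyte genes, 3 fell, with sums of 86.5 to 139 against 109 to 231. Of 6 Schwann and nerve genes, none passed edgeR's test (2 at an unadjusted p under 0.05, with 2 calls by DESeq2 and 1 by limma-voom), with sums of 49.2 to 81.0 against 78.7 to 137. Endothelial (163 to 238 against 170 to 221), fibroblast (280.5 to 516 against 402 to 495) and satellite cell sums (45.7 to 59.5 against 48.6 to 58.8) overlapped between groups. Of these, 1 satellite cell gene fell, Vcam1. No marker of these lists was at 0 counts in any library. The part of these other cells in the values of Mettl21c, Setd3 and the actins was not tested.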

How the data were processed

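Gastrocnemius poly(A) RNA was sequenced as paired ends. As the authors describe, reads were trimmed with Trimmomatic 0.36, aligned to GRCm38 with STAR 2.5.2b, and unique exon reads were summed per gene with featureCounts. The authors deposited raw counts, neither normalised nor pooled. Whether libraries were stranded is not given in the sources used here. In the table, 174 rows had no gene symbol and were kept as genes. Counting error is small for the abundant genes, so replicate spread sets their precision. For genes with few counts, such as Mettl21e with 42 to 143, counting error is a sizeable part of the spread. Over the whole table, replicates differed by far more than sampling noise.

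Groups were compared with edgeR 4.0.16 under R 4.3.3 (filterByExpr, TMM, robust quasi-likelihood F test, Benjamini-Hochberg adjustment over 15847 genes, threshold 0.05), and the fit was tested on simulated data. Standard errors were derived from the F statistic. Alternatives used DESeq2 1.42.0, limma 3.58.1, other scalings and filters, a slow-fibre covariate, and each library left out. Positions came from GENCODE M21 (GRCm38), which held 99.3% of identifiers, and promoters from RefSeq (GRCm38.p6). Matches to RefSeq covered 7 of the 10 genes.

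The genes and lists were chosen with earlier results of these data known. Named were all 10 genes, each called gene and the most abundant gene of the enzyme, substrate, methyl donor, denervation and AHR lists (the AHR genes only as a group), called fibre genes with Myh7 and Myh4, the 5 genes most like Mettl21c, and tested genes within 500 kb of it. Other names are given as chosen later.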

Additional observations from a re-analysis of the deposited data

How the results depend on the processing

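No paired analysis was possible because no replicate number occurred in both groups. The number of genes passing the test was 1205, and 2470 with no filter on low counts, 1923 with DESeq2 and 436 with the slow-fibre covariate. Leaving out each library gave 530 to 1727 (694 without AAV9-HSA-CAAHR replicate 31, 530 without 36, 701 without AAV9-HSA-GFP replicate 43 and 604 without 46). The split was 481 higher and 724 lower, against 358 and 990 with upper quartile scaling, 322 and 1061 with pan-fibre scaling, and 876 and 600 with library size alone. Among the 9 methyltransferases beside Mettl21c, 1 passed, and 2 with no filter on low counts, where Mettl21e was at -0.89. Leaving out each library gave 1 throughout. Among the 18 related enzymes the count of 1 became 2 with pan-fibre scaling, 2 with no filter, 3 with DESeq2, 2 with limma-voom and 0 with the slow-fibre covariate, and 0 to 1 when each library was left out. With library size alone the 1 call was another gene, N6amt1, which was higher (0.47), and without AAV9-HSA-GFP replicate 42 it was Ntmt1, which was lower (-0.87). The log2 fold change of Mettl21c was -1.27 with the slow-fibre covariate, and -1.60 to -1.39 when each library was left out. Mettl21e ran from -1.30 to -0.37 when each library was left out. Smyd3 changed sign to -0.052 with upper quartile scaling, -0.074 with pan-fibre scaling and -0.040 with limma-voom and -0.075 without AAV9-HSA-CAAHR replicate 34, and ran from -0.075 to 0.11 when each library was left out. Smyd2 was at 0.14 with the slow-fibre covariate, and -0.42 to -0.12 when each library was left out. The cause of these shifts was not tested. The other 6 methyltransferases kept their sign and their side of the threshold in all 16 alternatives, but with the slow-fibre covariate Smyd1 was at -0.019, Eef2kmt at -0.019 and Mettl21a at -0.084, all close to 0. With 3 libraries a group, small differences could be missed, and Mettl21e had the fewest counts.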
